A study of Mus musculus with 18 samples.

Results

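The effect of FGF9 on gene expression in bone marrow mesenchymal stem cells (BMSCs) was compared between osteogenic induction medium and plain culture medium. For each gene, the log2 change with FGF9 in osteogenic medium (OI_F9 against OI) was taken minus the log2 change in culture medium (CM_F9 against CM). The comparison used 12 of the 18 samples of the series, 3 in each of CM, CM_F9, OI and OI_F9, and all 17631 expressed genes were tested. A negative difference marks a gene on which FGF9 acted less positively, or more negatively, in OI than in CM. The question was whether the medium alters what FGF9 does to these cells.

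All 4 groups were wild-type mouse BMSCs on day 4, with 0 ng/ml FGF9 in CM and OI and 20 ng/ml recombinant FGF9 in CM_F9 and OI_F9. By the methods of the study, the cells were released from compact bone by collagenase and expanded for a few passages. CM was a commercial culture medium. OI was α-MEM with serum, ascorbate-2-phosphate, beta-glycerol phosphate and dexamethasone, so that OI and CM differ in the base medium as well as in the inducers, and the parts of these components cannot be told apart. The study describes its RNA-seq as independent analyses with biological replicates. Neither the age of the mice nor whether the replicates of a group were separate animals or separate cultures of the same cells is given in the sources used here, so the p-values measure only the spread between these samples. Poly(A) RNA was sequenced to 16719561 to 20526502 counted reads per library, with a median of 18813494. Levels are given as FPKM, the read count scaled to gene length and to the library total, as deposited.

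The stromal genes Pdgfra, Pdgfrb, Ly6a, Itgb1, Cd44 and Thy1 were at 23.4 FPKM or more in every one of the 12 libraries, and the T cell gene Cd3e was listed at 0 throughout. Markers of other cells were present, with Cd34 (blood and endothelial progenitors) between 9.59 and 15.7 FPKM and Ptprc, the pan-leukocyte antigen CD45, between 1.71 and 4.32 FPKM. Of the macrophage genes, Csf1r lay between 10.8 and 28.6 FPKM and Adgre1 between 8.25 and 23.3 FPKM. The summed level of the 23 macrophage and osteoclast markers was 767 to 1204 FPKM in CM, 759 to 861 in CM_F9, 1533 to 1864 in OI and 1375 to 1407 in OI_F9. None of its 21 measured members was called for the difference by edgeR or DESeq2 (7 at an unadjusted p under 0.05), and its part in the results below was not tested. The endothelial genes Pecam1 and Cdh5 were at 0.61 to 2 and 1.14 to 3.17 FPKM. Summed levels of the 18 endothelial markers were 33.5 to 36.6 FPKM in CM and 34.3 to 35.6 in CM_F9. In OI they were 44.9 to 47.0 FPKM, and 31.3 to 35.6 in OI_F9. Of 17 measured members, 1 was called higher and 1 lower, at a median difference of -0.65. Their part in the results was not tested either. In bulk RNA, fewer cells of a type and less RNA per cell cannot be told apart.

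FGF9 belongs to the fibroblast growth factors and activates receptor tyrosine kinases, which signal through the RAS/ERK and PI3K/AKT cascades. The cascade induces early transcription factors such as the EGR family and its own inhibitors, among them the Sprouty proteins and dual-specificity phosphatases. BMSCs can become osteoblasts or adipocytes. Dexamethasone, a synthetic glucocorticoid, drives both routes through the glucocorticoid receptor, which binds palindromic response elements in DNA. Ascorbate allows collagen to be hydroxylated and beta-glycerol phosphate supplies phosphate for mineral.

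The effects of FGF9 in the 2 media ran together across genes, and 287 genes passed the test of a difference. The genes with a lower effect in OI included 9 of 41 mature adipocyte genes, 5 of 32 glucocorticoid-induced genes and the factors Egr1, Egr2 and Egr3, and those with a higher one included Fndc1, Sfrp2 and Nog. Across all tested genes, the FGF9 effects in CM and OI, which share no samples, had Pearson's r = 0.774 over 17631 genes, and r = 0.848 over the 2620 genes called in either medium. Genes are not independent replicates, so r is a description. A gene was called where the log2 value was at least 1 in size and the adjusted p, from edgeR's quasi-likelihood test with Benjamini-Hochberg adjustment over all tested genes, was at most 0.05. All adjusted p-values given here come from that fit, and every value after ± is a standard error. The FGF9 effect differed between OI and CM in 287 genes (1.63%), with 88 higher (0.499%) and 199 lower (1.13%) in OI. At the adjusted p alone, 967 genes passed (5.48%). The median difference over all tested genes was 0.0025.

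**Figure D1:**
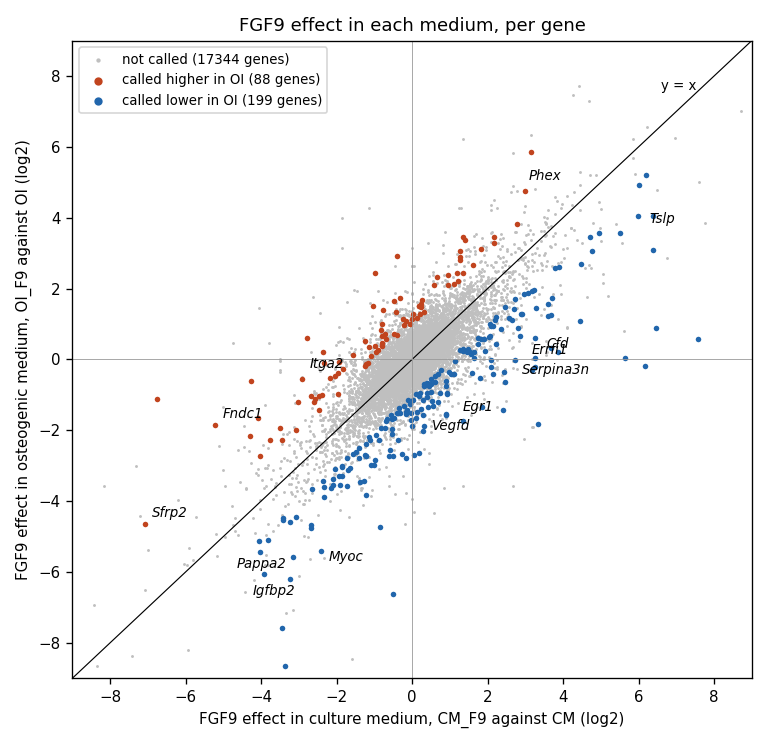
Each point is 1 of the 17631 tested genes, with its log2 FGF9 effect in culture medium on the x axis and in osteogenic medium on the y axis. Most genes lie along the line of equal effects (r = 0.774), and the 88 red genes above it and the 199 blue genes below it were called for the difference.

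The called genes fell into several shapes. Of the 199 lower genes, 32 were called up by FGF9 in both media but less in OI, 48 were called down in both but more in OI, 44 were called up in CM alone and 50 were called down in OI alone. Another 3 were called up in CM and down in OI, and 22 were called in neither medium on its own. Of the 88 higher genes, 16 were up in both, 16 were down in both, 19 were down in CM alone, 24 were up in OI alone and 13 were called in neither. Over all tested genes, FGF9 called 5.5% up and 5.16% down in CM, and 5.48% up and 6.07% down in OI. Few genes called in 1 medium alone passed the test of the difference. Of 584 genes called in CM and not in OI, 63 (10.8%) passed the test of the difference, and of 742 called in OI and not in CM, 74 (9.97%) passed. Of the 1291 genes called in the same direction in both media, 112 (8.68%) passed.

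The levels without and with FGF9 are given side by side here, because each of those contrasts shares samples with the difference. OI enters the difference with a minus sign and CM with a plus sign. A lower call therefore favours OI above CM without FGF9 by construction, and a higher call favours the reverse. With FGF9 the signs are the other way round. The counts are a description of the called genes and no separate result. Of the 199 lower genes, 117 were called higher in OI than in CM without FGF9 and 4 were called lower. With FGF9, 29 of the 199 were higher in OI and 51 were lower. Of the 88 higher genes, none was called higher in OI without FGF9 and 45 were called lower, and with FGF9 23 were higher and 2 were lower. Over all tested genes, 3.55% were called higher and 1.93% lower in OI without FGF9, against 2.31% and 1.96% with FGF9.

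The most firmly called lower gene was Serpina3n, which is not in the list of glucocorticoid-induced genes described below and encodes a secreted inhibitor of serine proteases (chr12:104372988-104380588 in GRCm39, plus strand). It stood at 3.63, 3.83 and 4.01 FPKM in CM, 26.4, 25.1 and 27.2 in CM_F9, 97.8, 108 and 112 in OI and 99.2, 114 and 112 in OI_F9. CM was lowest, CM_F9 lay between, and both OI groups were high and overlapped. FGF9 changed it by 2.71 ± 0.09 (log2) in CM and by -0.02 ± 0.06 in OI (log2 difference -2.73 ± 0.11, adjusted p = 1.8e-13).

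Serpina3n is also 1 of the few called genes matching a loose pattern of the glucocorticoid response element (GNACANNNTGTNC, N any base, either strand). The search covered the RefSeq promoter window, which runs from 250 bases before to 50 after an annotated start in GRCm38.p6. The Serpina3n match is not an exact palindrome. The stretch below, chr12:104406605-104406667 on the plus strand, is shown because the gene carries the firmest lower call, with the match in capitals 78 to 66 bases before the start.
Serpina3n: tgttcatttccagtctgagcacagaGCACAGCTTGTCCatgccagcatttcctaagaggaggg
Of the 286 called genes with a symbol, 188 had a window and 3 (1.6%) held a match, these being Serpina3n, Serpina3c and Gnmt, beside 145 of 27025 genes with a window (0.537%). Serpina3n and Serpina3c belong to the same gene family, and Gnmt had 0 or 1 read in each CM library. The 27025 genes include genes that were not tested here, and the shares were not compared by a test. A match of letters is a description and no measure of binding.

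Of 32 measured glucocorticoid-induced genes, 5 were called lower and 1 higher, and the list had a median difference of -0.28. The share called was 18.8%, beside 1.63% of all tested genes, a share that applies beside every list count given here. The medium itself raised 21 of the 32 without FGF9 and 16 with it, beside 3.55% and 2.31% of all tested genes. Fkbp5, a chaperone partner that restrains the glucocorticoid receptor, was at 1.83, 1.5 and 1.53 FPKM in CM, 6.12, 5.74 and 6.3 in CM_F9, 29.4, 29 and 28 in OI and 45.3, 43.6 and 43.9 in OI_F9. All 4 groups were apart, with OI_F9 the highest, and FGF9 added 1.84 in CM and 0.57 in OI (log2 difference -1.27 ± 0.09, adjusted p = 1.8e-09). Errfi1, a feedback inhibitor of EGF receptor kinases, was at 14.7, 13.1 and 14.5 FPKM in CM, 99.5, 101 and 123 in CM_F9, 86.4, 78.3 and 118 in OI and 170.1, 146 and 148 in OI_F9. CM stood apart at the bottom, and the CM_F9 and OI ranges overlapped (log2 difference -2.21 ± 0.16, adjusted p = 1.8e-09).

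Galnt15, a glycosyltransferase that starts mucin-type O-glycans, rose strongly with FGF9 in both media, by 5.50 in CM and 3.57 in OI, from 0.11 to 0.15 FPKM in CM, 5.63 to 6.27 in CM_F9, 0.68 to 0.84 in OI and 9.04 to 10.6 in OI_F9 (log2 difference -1.93 ± 0.19, adjusted p = 3.1e-07). On log2(FPKM + 1) the Galnt15 difference was -0.049 and was not called by limma. Fmo2, a flavin monooxygenase, was low in CM at 0.16 to 0.26 FPKM and changed by 1.45 in CM and 0.21 in OI (log2 difference -1.24 ± 0.23, adjusted p = 0.0011). Cdkn1c, which encodes the cell cycle inhibitor p57, showed another shape, with 11.7, 12.1 and 16.6 FPKM in CM, 10.5, 9.33 and 8.92 in CM_F9, 35, 34.2 and 35.6 in OI and 12.2, 10.7 and 13.3 in OI_F9. OI was the highest group, OI_F9 overlapped CM, and FGF9 effects were -0.55 in CM and -1.58 in OI (log2 difference -1.03 ± 0.16, adjusted p = 1.6e-04). Its difference was -1.19 to -0.93 with each library left out in turn, and the fold threshold was missed without CM replicate 1 or 2, CM_F9 replicate 1 or OI_F9 replicate 2. Rasl11b, a small GTPase, was the 1 higher member, at the threshold with a difference of 1.004, and DESeq2 did not call it. Nor was it called without CM replicate 1 or 3, CM_F9 replicate 1 or 2, OI replicate 1 or 2 or OI_F9 replicate 2 or 3 (0.90 to 1.17).

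Other classical targets of the receptor responded to OI without a called difference in the FGF9 effect. Tsc22d3, which encodes the glucocorticoid-induced leucine zipper protein, was at 10.6 to 11.1 FPKM in CM, 5.29 to 6.19 in CM_F9, 84.7 to 93.5 in OI and 37.1 to 43.7 in OI_F9 and its difference was -0.26 ± 0.10 (adjusted p = 0.20). Zbtb16, a zinc finger factor, rose by 5.52 in OI without FGF9 and had a difference of -0.31 ± 0.33 (adjusted p = 0.77). The clock gene Per1 had -0.06 ± 0.13 (adjusted p = 0.90) and the factor Klf9 0.05 ± 0.10 (adjusted p = 0.90). These 4 genes were chosen after their values were seen.

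**Figure D2:**
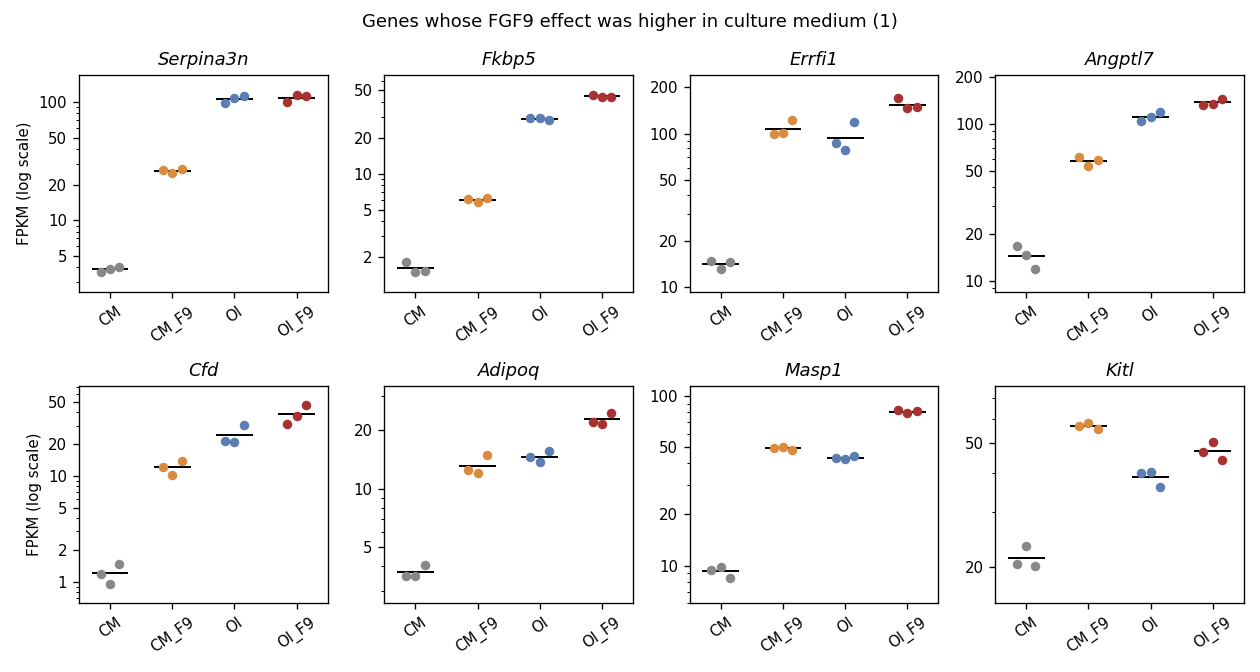
FPKM on a log scale in the 12 libraries (points, 3 per group) with group means (bars) for 8 genes whose FGF9 effect was lower in OI. In each panel CM is lowest, and the step from OI to OI_F9 is smaller than that from CM to CM_F9, as for Serpina3n with 2.71 in CM and -0.02 in OI.

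Mature adipocyte genes gave 9 called members of 41 measured, all of them lower, with a median difference of -0.46 for the list (-0.32 with genes at 0 in a group set to a floor of 3 counts per group). The share called was 22%, beside 1.63% of all tested genes. FGF9 called 18 of the 41 up in CM and 15 up in OI, and OI without FGF9 called 19 up. Over all tested genes these last shares were 5.5%, 5.48% and 3.55%. The members called lower were Retn, Cfd, Cidec, Aqp7, Acvr1c, Adrb3, Car3, Plin1 and Adipoq. Of these, only Cfd was also called by limma on log2(FPKM + 1), a scale that shrinks the fold of low values. Retn, Cidec, Acvr1c, Adrb3 and Plin1 were called up by FGF9 in both media, with the smaller effect in OI. Adipoq and Cfd were called up in CM and lay under the fold threshold in OI, Aqp7 was called up in CM alone, and Car3 was called down in both media.

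Adipoq, the adipokine adiponectin, was at 3.57, 3.56 and 4.06 FPKM in CM, 12.5, 12 and 14.9 in CM_F9, 14.6, 13.7 and 15.6 in OI and 22.1, 21.6 and 24.6 in OI_F9. OI without FGF9 overlapped CM_F9, OI_F9 was highest, and FGF9 added 1.75 in CM and 0.59 in OI (log2 difference -1.16 ± 0.14, adjusted p = 6.9e-06). Plin1, the coat protein of lipid droplets, was at 1.08, 0.63 and 1.49 FPKM in CM, 7.31, 6.55 and 6.15 in CM_F9, 3.79, 3.24 and 3.21 in OI and 8.72, 7.58 and 7.66 in OI_F9, so both FGF9 groups reached similar levels from unequal starts (log2 difference -1.40 ± 0.19, adjusted p = 3.1e-05). Cfd, the complement protease adipsin that adipocytes secrete, was at 1.17, 0.95 and 1.48 FPKM in CM, 12.1, 10.2 and 13.9 in CM_F9, 21.2, 21.2 and 30.4 in OI and 31, 37 and 47.2 in OI_F9. It rose by 3.25 in CM and 0.61 in OI (log2 difference -2.64 ± 0.30, adjusted p = 2.3e-06).

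The largest lower values among genes reaching 5 FPKM in a group were those of 2 resistin family genes that started from few or no reads. Retn, the adipokine resistin, was at 0.03 to 0.07 FPKM in CM, 0.81 to 1.25 in CM_F9, 2.15 to 3.01 in OI and 4.94 to 6.8 in OI_F9, with 1 or 2 reads in each CM library (log2 difference -3.37 ± 0.52, adjusted p = 1.3e-04). On log2(FPKM + 1), where a pseudocount shrinks the fold of low values, the Retn difference was -0.077 and was not called by limma. Retnla, a relative of resistin, had no read in any CM library and 32, 153 and 295 reads in all in CM_F9, OI and OI_F9. FGF9 raised it by at least 11.1-fold in CM, with CM set to a floor of 3 counts over the group, and by 0.89 (log2) in OI. At that floor the difference was -2.58. Its fitted difference of -5.56 (adjusted p = 0.0014) depends on the prior count of the fit.

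Cidec, which enlarges lipid droplets by fusion, was at 0.06 to 0.08 FPKM in CM, 0.69 to 1.03 in CM_F9, 3.27 to 4.87 in OI and 7.72 to 11.1 in OI_F9 and had 2, 2 and 3 reads in CM (log2 difference -2.38 ± 0.55, adjusted p = 0.0081). Its direction depends on the scale, since on log2(FPKM + 1) the difference was 0.30. Acvr1c, an activin receptor, likewise had a count-based difference of -1.62 and 0.00840 on log2(FPKM + 0.5), with every library below 1 FPKM. Car3, a carbonic anhydrase of fat cells, moved the other way from the rest, with FGF9 effects of -2.10 in CM and -3.55 in OI from 0.68 to 1.23 FPKM in CM, 0.16 to 0.31 in CM_F9, 1.91 to 2.26 in OI and 0.15 to 0.21 in OI_F9 (log2 difference -1.45 ± 0.41, adjusted p = 0.040). The calls of Car3 and of Adrb3, the fat cell adrenergic receptor, rested on most libraries. That of Car3 was lost without any 1 of 9 libraries (CM replicates 1 and 3, CM_F9 replicates 1 and 3, OI replicates 1 and 2 and each OI_F9 replicate; -1.71 to -1.16) and that of Adrb3 without any 1 of 8 (CM replicates 2 and 3, CM_F9 replicates 1 and 3, OI replicates 1 and 3 and OI_F9 replicates 2 and 3; -1.97 to -1.34).

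The factors that establish fat cells and the genes of lipid metabolism gave few calls. Of 27 adipogenic transcription factors 1 was called, the coactivator Ppargc1a, at under 1 FPKM in all libraries. The Ppargc1a value missed the threshold without CM replicate 3, OI replicate 1 or OI_F9 replicate 2 (-1.24 to -0.89). Pparg, the master regulator of adipogenesis, was at 7.92 to 8.93 FPKM in CM, 8.01 to 8.83 in CM_F9, 11.7 to 12.5 in OI and 8.28 to 11.6 in OI_F9 (difference -0.26 ± 0.13, adjusted p = 0.38). Cebpa, its partner, was at 16.7 to 19.6 FPKM in CM, 28.7 to 31 in CM_F9, 25.9 to 28.6 in OI and 37.4 to 43.4 in OI_F9 (difference -0.12 ± 0.09, adjusted p = 0.63), with FGF9 effects of 0.67 in CM and 0.55 in OI. Fabp4, a fatty acid carrier of adipocytes, passed the adjusted p but not the fold threshold (-0.46 ± 0.13, adjusted p = 0.035). Of 28 genes of fatty acid synthesis and triglyceride assembly only Thrsp was called, and edgeR called none of 31 genes of fatty acid oxidation (4 at an unadjusted p under 0.05 and 1 by DESeq2) or 26 of cholesterol synthesis (7 and 0).

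Early response genes of the EGR family had a lower FGF9 effect in OI, and the feedback inhibitors of FGF signaling were not called. Of 29 measured genes of FGF feedback and early response, 4 were called lower (Egr1, Egr2, Egr3 and Ier2) and none higher, and the list had a median difference of -0.49. Egr1, a zinc finger transcription factor induced by ERK, was at 47, 20.1 and 19 FPKM in CM, 41.6, 49.8 and 79.8 in CM_F9, 54.5, 53.3 and 49.5 in OI and 21.6, 31.4 and 30.9 in OI_F9. With FGF9 it was 0.93 (adjusted p = 0.0034) in CM and -0.95 (adjusted p = 0.0026) in OI, and the direction was opposite in the 2 media (log2 difference -1.89 ± 0.34, adjusted p = 7.5e-04). The first CM library stood apart from the other 2 and overlapped CM_F9.

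Egr2, a related factor, was at 5.02, 3.03 and 2.71 FPKM in CM, 3.44, 3.62 and 5.02 in CM_F9, 5.23, 5.46 and 7.45 in OI and 2.85, 1.61 and 1.5 in OI_F9 (log2 difference -1.76 ± 0.33, adjusted p = 0.0011). Egr3 had FGF9 effects of 2.05 in CM and 0.65 in OI, with 2.07 to 3.63 FPKM in CM, 10.3 to 14.9 in CM_F9, 5.67 to 9.02 in OI and 9.41 to 16.2 in OI_F9 (log2 difference -1.40 ± 0.29, adjusted p = 0.0036). Arc, an early response gene best known in neurons, was at 3.75, 2.38 and 2.65 FPKM in CM, 1.83, 1.79 and 4.09 in CM_F9, 6.61, 6.23 and 6.4 in OI and 1.16, 0.81 and 1.18 in OI_F9, so that OI_F9 lay below every other library (log2 difference -2.40 ± 0.34, adjusted p = 4.1e-05). Without CM replicate 1, the differences became -2.43 for Egr1, -2.07 for Egr2, -1.61 for Egr3 and -2.61 for Arc. Fos, a subunit of AP-1, was not called (-1.39 ± 0.54, adjusted p = 0.18), but was called without that library at -2.32 (adjusted p = 0.00047). Over the 12 fits that left out a library, the ranges were -2.43 to -1.56 for Egr1, -2.11 to -1.56 for Egr2 and -1.70 to -1.20 for Egr3. They were -2.61 to -1.89 for Arc and -2.32 to -1.02 for Fos. Egr1, Egr2, Egr3 and Arc stayed called in each of these fits, and Fos was called in no other of them. Ier2 was called at -1.04 ± 0.28 (adjusted p = 0.028), and DESeq2 did not call it. Its call was lost without CM replicate 2 or 3, CM_F9 replicate 3, OI replicate 1 or 2 or OI_F9 replicate 1 or 2, with a range of -1.48 to -0.83.

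The CArG box is the sequence that serum response factor binds in early response promoters. Egr2 holds 1 in each of 2 RefSeq promoter windows, on the plus strand of chromosome 10 in GRCm38.p6, at chr10:67537484-67537513 and chr10:67537787-67537816. Both stretches are shown because Egr2 was called and its window was in the table, with the box in capitals 72 to 63 bases before the start of its window's transcript.
Egr2 first box: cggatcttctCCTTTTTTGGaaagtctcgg
Egr2 second box: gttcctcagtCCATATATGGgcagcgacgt
Of the called genes with a window, 3 of 188 (1.6%) held such a box (Egr2, Igf2 and Selenbp1), beside 488 of 27025 genes (1.81%), a share near that of all genes.

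The feedback genes were induced in both media. Spry4, a Sprouty inhibitor of RAS signaling, rose by 3.43 in CM and 2.67 in OI, and its difference of -0.76 ± 0.12 passed the adjusted p (2.4e-04) but not the fold threshold. Spry2 did likewise (-0.49 ± 0.10, adjusted p = 0.0044). Dusp6, the phosphatase that switches off ERK, was at 7.56 to 10.5 FPKM in CM, 58.4 to 64.7 in CM_F9, 10.8 to 14.3 in OI and 50.6 to 69.7 in OI_F9 (difference -0.42 ± 0.15, adjusted p = 0.12). The ETS factors Etv4 and Etv5, targets of FGF signaling, had differences of -0.07 ± 0.15 (adjusted p = 0.91) and 0.19 ± 0.09 (adjusted p = 0.35). None of 16 FGF receptors and ligands was called by edgeR or DESeq2, and 5 had an unadjusted p under 0.05. Fgfr1 had effects of 0.99 in CM and 0.98 in OI (difference -0.01 ± 0.09, adjusted p = 0.98), and Fgfr2 had -2.25 in CM and -2.43 in OI (difference -0.17 ± 0.08, adjusted p = 0.29).

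A further set of genes was high in OI and brought down there by FGF9. Myoc, which encodes the secreted glycoprotein myocilin and is a known glucocorticoid-induced gene of the eye (chr1:162466724-162477262 in GRCm39, plus strand), was at 5.9, 5.04 and 4.35 FPKM in CM, 1.01, 0.88 and 1.1 in CM_F9, 26.9, 27.5 and 29.1 in OI and 0.72, 0.75 and 0.56 in OI_F9. OI exceeded CM in every library, while both FGF9 groups lay near 1 FPKM or below (log2 difference -2.99 ± 0.23, adjusted p = 8.1e-09). Vegfd, a growth factor for lymphatic vessels (chrX:163156374-163185646, plus strand), was at 27.9, 27.6 and 23.8 FPKM in CM, 30.0, 30.7 and 29.3 in CM_F9, 126, 130.0 and 124 in OI and 47.3, 44.2 and 47.6 in OI_F9. FGF9 left it at 0.12 ± 0.06 (log2; adjusted p = 0.15) in CM and changed it by -1.50 in OI (log2 difference -1.62 ± 0.09, adjusted p = 4.8e-11).

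Adm, which encodes the vasodilator peptide adrenomedullin, was at 40.2, 34.5 and 38.2 FPKM in CM, 39, 38.4 and 37.9 in CM_F9, 92.7, 98.1 and 109 in OI and 33, 36.3 and 39.1 in OI_F9. OI stood alone at the top and the other 3 groups overlapped (log2 difference -1.49 ± 0.12, adjusted p = 1.2e-08). It was the only called member of 36 hypoxia and glycolysis genes. Dpep1, a membrane dipeptidase, was at 3.12 to 3.27 FPKM in CM, 1.92 to 2.5 in CM_F9, 48.9 to 56.7 in OI and 13.1 to 15.4 in OI_F9 (log2 difference -1.45 ± 0.15, adjusted p = 5.7e-07), and Aldh1a1, a retinaldehyde dehydrogenase, was at 10.4 to 11.9 FPKM in CM, 4.64 to 5.43 in CM_F9, 58.9 to 63.2 in OI and 7.99 to 10.4 in OI_F9 (log2 difference -1.51 ± 0.13, adjusted p = 5.0e-08). In both, OI without FGF9 lay above all other groups.

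Id4, an inhibitor of basic helix-loop-helix factors that promotes osteoblast formation in mice, was at 7.54 to 8.36 FPKM in CM, 1.93 to 2.52 in CM_F9, 21.9 to 24.9 in OI and 2.41 to 2.63 in OI_F9. With FGF9 the 2 media overlapped, after changes of -1.86 in CM and -3.28 in OI (log2 difference -1.42 ± 0.13, adjusted p = 6.4e-08). Clu, the extracellular chaperone clusterin, was at 14.5 to 15.9 FPKM in CM, 7.05 to 7.64 in CM_F9, 39.2 to 41.4 in OI and 7.96 to 9.7 in OI_F9 (log2 difference -1.16 ± 0.11, adjusted p = 1.3e-07), and Mylk, the myosin light chain kinase, was at 9.7 to 10.2 FPKM in CM, 3.44 to 3.92 in CM_F9, 19.5 to 22.4 in OI and 3.44 to 3.67 in OI_F9 (log2 difference -1.13 ± 0.11, adjusted p = 1.8e-07). Without FGF9, OI exceeded CM in these 3 genes by 1.55, 1.39 and 1.07 on the log2 scale. Vegfd, Dpep1 and Aldh1a1 were chosen after their values were seen.

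**Figure D3:**
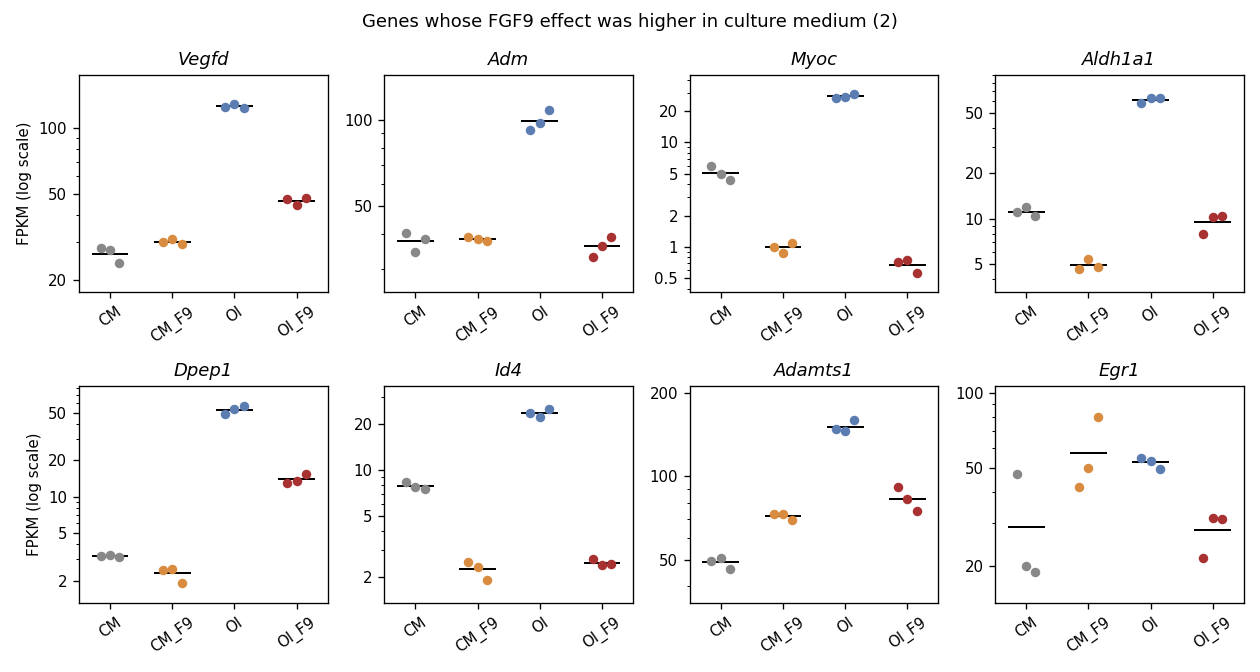
FPKM on a log scale in the 12 libraries (points, 3 per group) with group means (bars) for 8 genes called lower. The OI mean lies above the OI_F9 mean in every panel, and for Egr1 the first CM library (47 FPKM) stands apart from the other 2.

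The IGF axis held 2 genes that fell further with FGF9 in OI. Pappa2, a protease that releases IGF from its binding proteins, was at 4.3, 4.91 and 5.19 FPKM in CM, 0.53, 0.58 and 0.57 in CM_F9, 24.2, 22.6 and 18.4 in OI and 0.46, 0.47 and 0.47 in OI_F9. The OI level was the highest and both FGF9 groups were near 0.5 FPKM, with effects of -3.16 in CM and -5.58 in OI (log2 difference -2.43 ± 0.16, adjusted p = 9.2e-10). Igfbp2, an IGF binding protein, was at 233, 238 and 237 FPKM in CM, 16, 17.4 and 15.3 in CM_F9, 120.2, 135 and 142 in OI and 1.83, 1.92 and 2.39 in OI_F9. The FGF9 effects were -3.92 in CM and -6.06 in OI (log2 difference -2.15 ± 0.14, adjusted p = 6.3e-10). Of 20 IGF axis genes these 2 were called lower and Igf2, below 1 FPKM throughout, was called higher. The Igf2 call was lost without CM replicate 3, CM_F9 replicate 1 or 3, OI replicate 3 or OI_F9 replicate 1 or 2 (1.17 to 1.83). H19, a noncoding RNA next to Igf2 that was chosen after its values were seen, was at 57.2, 62.7 and 67.5 FPKM in CM, 67.4, 63.5 and 65.5 in CM_F9, 63.7, 65.1 and 58.4 in OI and 137, 141 and 149 in OI_F9, with FGF9 effects of 0.00487 in CM and 1.14 in OI (log2 difference 1.13 ± 0.09, adjusted p = 5.9e-09). Igf1 had a difference of -0.30 ± 0.09 (adjusted p = 0.044), below the fold threshold.

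Bone matrix and mineral genes gave 8 called members of 30, with 6 lower and 2 higher, and their median difference was -0.18. The lower count was 5 by DESeq2 and without CM replicate 1 or 2, CM_F9 replicate 2 or 3, OI replicate 1 or OI_F9 replicate 1. Without these same libraries the call of Dmp1, described below, was lost. The higher count was 1 or 2 with a library left out. A gene can belong to more than 1 list, so counts of related lists are not separate results. Smpd3, a sphingomyelinase needed for bone mineralization in mice, was at 1.52, 1.87 and 2.09 FPKM in CM, 2.84, 2.69 and 2.85 in CM_F9, 11.7, 12 and 10.7 in OI and 4.66, 4.92 and 4.75 in OI_F9. It rose slightly in CM (0.55, adjusted p = 0.0013) and fell in OI (-1.31, adjusted p = 9.3e-10), with OI the highest group (log2 difference -1.86 ± 0.17, adjusted p = 6.8e-08). Ibsp, bone sialoprotein, was at 79.9, 81 and 162 FPKM in CM, 32.1, 29.6 and 30.8 in CM_F9, 717, 622 and 654 in OI and 69.6, 91.8 and 87.8 in OI_F9, and FGF9 took OI down to about the CM level (log2 difference -1.19 ± 0.24, adjusted p = 0.0022).

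Ogn and Omd, the small leucine-rich proteoglycans osteoglycin and osteomodulin, fell in both media and more in OI. Ogn was at 691 to 774 FPKM in CM, 253 to 257 in CM_F9, 1035 to 1075 in OI and 157 to 191 in OI_F9 (log2 difference -1.10 ± 0.09, adjusted p = 1.8e-08), and Omd was at 104 to 110.2 FPKM in CM, 10.1 to 10.6 in CM_F9, 142 to 149.5 in OI and 5.51 to 7.07 in OI_F9 (log2 difference -1.11 ± 0.12, adjusted p = 1.6e-06). Aspn, the related asporin, was at 274 to 301 FPKM in CM, 58.3 to 59.3 in CM_F9, 414 to 428 in OI and 33.9 to 37.6 in OI_F9 (log2 difference -1.27 ± 0.08, adjusted p = 9.2e-10). For each of the 3 genes OI was the highest group and OI_F9 the lowest, without overlap. Panx3, a channel protein of osteoblasts, was called lower at under 2 FPKM (log2 difference -2.12 ± 0.35, adjusted p = 2.8e-04).

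Genes of the osteocyte and of phosphate balance did not move as 1 group, with 3 of 19 called higher and 1 lower. Phex, an osteocyte endopeptidase that restrains phosphate loss through FGF23, was at 0.68, 1.0 and 0.71 FPKM in CM, 6.05, 7.15 and 6.74 in CM_F9, 0.36, 0.32 and 0.25 in OI and 8.09, 10.2 and 8.02 in OI_F9. OI was the lowest group and OI_F9 the highest, and FGF9 raised it by 2.997 in CM and 4.76 in OI (log2 difference 1.76 ± 0.24, adjusted p = 3.5e-05). Dmp1, an acidic matrix protein of osteocytes, rose steeply in both media, by 6.01 in CM and 4.92 in OI, and was called lower at -1.09 ± 0.30 (adjusted p = 0.031). DESeq2 did not call it, and leaving out CM replicate 1 or 2, CM_F9 replicate 2 or 3, OI replicate 1 or OI_F9 replicate 1 ended the call (-1.43 to -0.56). Mepe, a phosphoglycoprotein of the matrix, had 0 to 2 reads in each CM_F9 library and 5 to 33 in each of the others, and its call (adjusted p = 0.042) was lost without any 1 of 8 libraries (each CM_F9 replicate, CM replicates 1 and 3, OI replicates 1 and 3 and OI_F9 replicate 2; 2.89 to 4.21). Ptprz1, a receptor phosphatase, was called higher at 1.67 ± 0.23 and Fgf23 itself was not called (adjusted p = 0.76).

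The osteoblast genes that the study names were not among the called genes. Alpl, alkaline phosphatase, fell from 23.9 to 28.5 FPKM in CM to 0.30 to 0.49 in CM_F9, and from 52.2 to 60.3 in OI to 0.88 to 1.2 in OI_F9, so the effects were -6.05 in CM and -5.78 in OI and the difference was 0.26 ± 0.20 (adjusted p = 0.62). Col1a1, the main bone collagen chain, had a difference of -0.25 ± 0.09 (adjusted p = 0.16), from effects of -2.55 in CM and -2.79 in OI. Runx2 and Sp7, the osteoblast transcription factors, had -0.19 ± 0.11 (adjusted p = 0.46) and -0.51 ± 0.12 (adjusted p = 0.013). Runx2 was at 8.5 to 9.25 FPKM in CM, 9.87 to 10.07 in CM_F9, 8.89 to 10.04 in OI and 8.3 to 10.26 in OI_F9. Sp7 was at 5.61 to 7.14 FPKM in CM, 9.37 to 9.63 in CM_F9, 8.91 to 9.6 in OI and 9.02 to 10.67 in OI_F9. By qRT-PCR, a different measure, the study reports a decrease of both mRNAs (Sp7 as Osterix) with FGF9 in osteogenic medium. Spp1, osteopontin, rose with FGF9 in both media. It was at 659 to 1101 FPKM in CM and 11427 to 12421 in CM_F9. In OI it was at 1165 to 1363 FPKM, against 11566 to 14026 in OI_F9. The Spp1 difference was -0.52 ± 0.18 (adjusted p = 0.10). For osteopontin protein, a different measure, the study reports a decrease with FGF9 under osteogenic induction. Dlx5, a homeobox factor, had a difference of 0.31 ± 0.20 (adjusted p = 0.53). An adjusted p above the threshold does not show that the effects were equal. Of 26 osteoblast transcription factors and receptors only the homeobox gene Dlx3 was called, at -1.20 ± 0.30 (adjusted p = 0.014), and its call was lost without CM replicate 1 or 2 (-1.67 to -1.01).

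Matrix proteases and their inhibitors gave 7 lower calls of 38 (18.4%, beside 1.13% of all tested genes) and none higher, at a median of -0.21. Adamts1, a protease of the proteoglycan versican, was at 49.6, 50.8 and 46.2 FPKM in CM, 73.2, 73.3 and 69.6 in CM_F9, 148, 146 and 160.4 in OI and 91.4, 82.9 and 75.1 in OI_F9. FGF9 raised it in CM by 0.50 (adjusted p = 1.5e-06) and changed it in OI by -0.91 (adjusted p = 5.3e-11), and the groups did not overlap (log2 difference -1.41 ± 0.09, adjusted p = 8.2e-10). Mmp13, a collagenase of remodeling bone, also rose in CM and fell in OI. It was at 207 to 217 FPKM in CM, 269.9 to 293 in CM_F9, 319.9 to 325 in OI and 182 to 219.9 in OI_F9, so that OI_F9 overlapped CM. The Mmp13 difference of -1.03 ± 0.09 (adjusted p = 6.6e-08) missed the fold threshold without CM replicate 1, CM_F9 replicate 3 or OI_F9 replicate 1 (-1.07 to -0.94). Mmp9, the gelatinase of osteoclasts and macrophages, was at 1.0, 0.61 and 1.09 FPKM in CM, 1.55, 1.1 and 0.88 in CM_F9, 1.21, 2.83 and 2.43 in OI and 0.47, 0.74 and 0.57 in OI_F9 (log2 difference -2.21 ± 0.39, adjusted p = 6.3e-04). Mmp10, stromelysin 2, was induced from 2 or 3 reads per CM library to 7.05 to 7.36 FPKM in CM_F9 and 1.56 to 2.22 in OI_F9 (log2 difference -2.33 ± 0.63, adjusted p = 0.028). Its call was lost without CM replicate 1 or 3 or OI replicate 2 or 3 (-2.63 to -1.94), the groups with few reads. Serpinb2, a plasminogen activator inhibitor, and Adamts15 were also lower, at -1.36 and -1.31, and the seventh was Pappa2, above.

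Of 22 contractile genes of smooth muscle and myofibroblasts, FGF9 called 13 down in CM and 15 down in OI (beside 5.16% and 6.07% of all tested genes). The difference was called lower for 4 of them (Mylk, Tagln, Cnn1 and Actg2) and the list median was -0.40. Acta2, smooth muscle actin, was at 809.9 to 922 FPKM in CM, 92.1 to 95 in CM_F9, 675 to 829 in OI and 38.5 to 51 in OI_F9, with a difference of -0.81 ± 0.13 (adjusted p = 2.9e-04) under the fold threshold. Tagln, the actin-binding protein transgelin, was at 98 to 107 FPKM in CM, 15.7 to 18.3 in CM_F9, 85.7 to 105 in OI and 6.85 to 9.14 in OI_F9 and lay on the threshold at -1.003 ± 0.14 (adjusted p = 5.0e-05). The count of lower members fell from 4 to 1 without OI replicate 3 or OI_F9 replicate 2, and Mylk was called in all of the 12 fits that left out a library. The Tagln call was lost without CM replicate 3, CM_F9 replicate 2 or 3, OI replicate 3 or OI_F9 replicate 1 or 2 (-1.14 to -0.91). That of Cnn1 was lost without CM_F9 replicate 2, OI replicate 3 or OI_F9 replicate 1 or 2 (-1.40 to -0.90), and that of Actg2 without CM replicate 3, CM_F9 replicate 1, OI replicate 3 or OI_F9 replicate 2 or 3 (-1.39 to -0.82). Thbs1, the matricellular protein thrombospondin 1 and a far more abundant transcript, was at 4831, 5168 and 4691 FPKM in CM, 1213, 1218 and 1181 in CM_F9, 3632, 3659 and 3367 in OI and 384, 350.5 and 331 in OI_F9. The FGF9 effects were -2.09 in CM and -3.37 in OI, with no overlap between groups (log2 difference -1.28 ± 0.10, adjusted p = 3.9e-09).

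The highest values belonged to genes that FGF9 lowered from a high level in CM. Fndc1, a fibronectin type III domain protein (chr17:7957401-8046134 in GRCm39, minus strand), had the largest value among genes reaching 5 FPKM, at 16.9, 17.7 and 14.9 FPKM in CM, 0.53, 0.4 and 0.45 in CM_F9, 3.81, 3.33 and 3.01 in OI and 0.96, 1.05 and 0.88 in OI_F9. CM was far above the other groups and OI_F9 was above CM_F9 in every library, with FGF9 effects of -5.21 in CM and -1.86 in OI (log2 difference 3.36 ± 0.17, adjusted p = 1.5e-11). Sfrp2, a secreted antagonist of WNT (chr3:83673628-83681623, plus strand), was at 219.5, 223 and 219.9 FPKM in CM, 1.36, 1.6 and 2.17 in CM_F9, 99, 101 and 90.1 in OI and 4.24, 4.06 and 3.7 in OI_F9, so FGF9 lowered it in both media, less in OI (log2 difference 2.44 ± 0.14, adjusted p = 8.2e-11). Itga2, the collagen-binding integrin α2 chain, was at 6.4, 7.15 and 5.48 FPKM in CM, 1.02, 0.81 and 0.82 in CM_F9, 1.21, 1.08 and 1.1 in OI and 0.82, 0.88 and 0.71 in OI_F9. Only CM was high, and the other 9 libraries lay between 0.71 and 1.21 FPKM (log2 difference 2.37 ± 0.20, adjusted p = 3.0e-08).

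Rflnb, a regulator of filamin, was at 39.1 to 47 FPKM in CM, 3.69 to 4.26 in CM_F9, 14.8 to 16.8 in OI and 3.98 to 4.49 in OI_F9, and both FGF9 groups overlapped (log2 difference 1.56 ± 0.12, adjusted p = 1.0e-08). Meox1, a mesodermal homeobox gene, was at 6.36 to 7.82 FPKM in CM, 1.54 to 2.42 in CM_F9, 1.44 to 1.84 in OI and 1.16 to 1.41 in OI_F9 and was likewise high in CM alone (log2 difference 1.58 ± 0.27, adjusted p = 4.6e-04). Nog, the BMP antagonist noggin, was at 6.4 to 7.5 FPKM in CM, 1.2 to 1.37 in CM_F9, 4.67 to 6.21 in OI and 2.34 to 2.95 in OI_F9 (log2 difference 1.45 ± 0.22, adjusted p = 9.5e-05). The fibrosis-related Podn and Ccn4, which encode a leucine-rich proteoglycan and a WNT-induced CCN protein, were called higher at 1.06 and 1.05, and missed the fold threshold without 1 library, OI_F9 replicate 1 for Podn (0.99 to 1.14) and CM replicate 2 for Ccn4 (0.99 to 1.10).

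Others were induced more strongly by FGF9 in OI. Gfra1, a receptor for GDNF, was at 4.26, 4.2 and 4.13 FPKM in CM, 6.52, 6.7 and 6.41 in CM_F9, 1.24, 1.7 and 1.37 in OI and 5.89, 6.79 and 6.29 in OI_F9. OI was lowest, and OI_F9 and CM_F9 overlapped, with FGF9 effects of 0.58 in CM and 2.10 in OI (log2 difference 1.52 ± 0.13, adjusted p = 3.0e-08). Col23a1, a transmembrane collagen, was at 1.27 to 1.69 FPKM in CM, 3.62 to 3.73 in CM_F9, 0.66 to 0.71 in OI and 5.07 to 5.48 in OI_F9 (log2 difference 1.62 ± 0.16, adjusted p = 2.2e-07), and Dio2, which activates thyroid hormone, was at 7.23 to 9.65 FPKM in CM, 20.6 to 22.6 in CM_F9, 2.56 to 2.57 in OI and 12.7 to 17.4 in OI_F9 (log2 difference 1.09 ± 0.14, adjusted p = 1.4e-05). The Dio2 value missed the fold threshold without CM replicate 3 or OI_F9 replicate 2 (0.94 to 1.18). Ctnnal1, a relative of α-catenin, had effects of 0.24 in CM and 1.56 in OI (log2 difference 1.32 ± 0.10, adjusted p = 7.5e-09) and Tafa5, a secreted chemokine-like protein, of 0.27 in CM and 1.68 in OI (log2 difference 1.41 ± 0.17, adjusted p = 6.9e-06). Dio2, Ctnnal1 and Tafa5 were chosen after their values were seen.

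**Figure D4:**
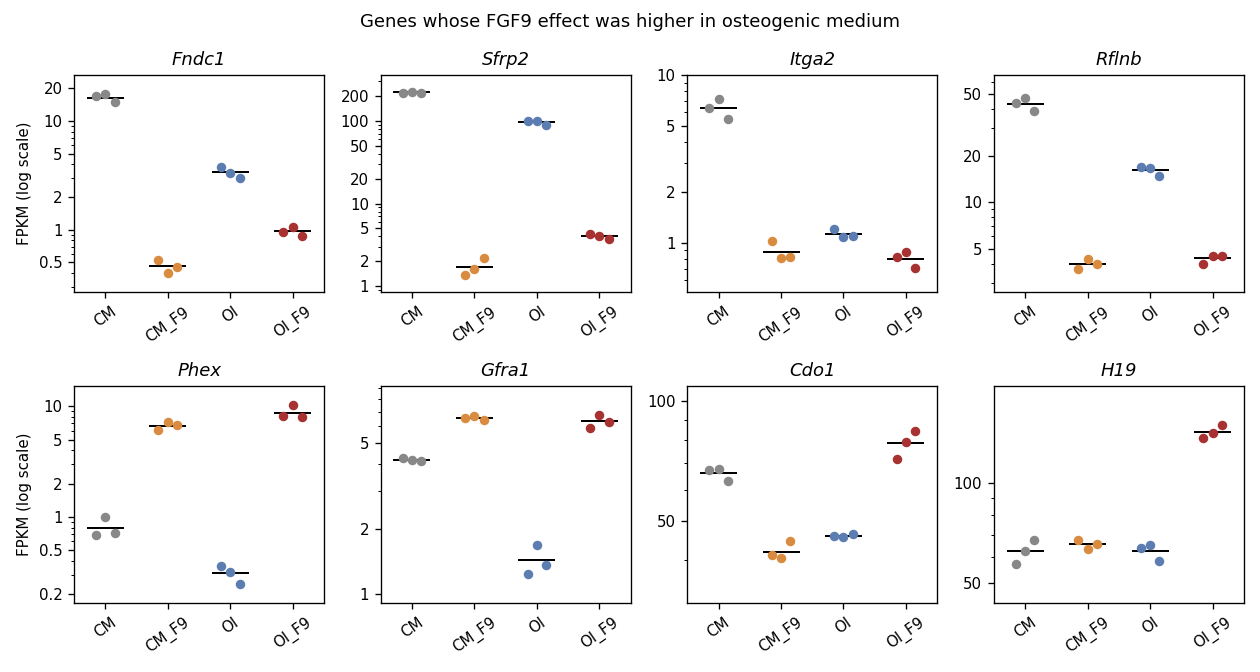
FPKM on a log scale in the 12 libraries (points, 3 per group) with group means (bars) for 8 genes called higher. In the upper row CM is far above the other groups or above OI, and in the lower row FGF9 gave a larger rise, or a rise in place of a fall, in OI, as for Gfra1 with 0.58 in CM and 2.10 in OI.

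FGF9 moved some genes in opposite directions in the 2 media. Opposite signs with an adjusted p of at most 0.05 in each medium were found in 30 of the 287 called genes, 14 of them reaching 5 FPKM in a group. Cdo1, an enzyme of cysteine breakdown to taurine, was at 67.3, 67.7 and 63 FPKM in CM, 41, 40.4 and 44.5 in CM_F9, 45.9, 45.5 and 46.6 in OI and 71.7, 79.3 and 84.5 in OI_F9. FGF9 lowered it in CM and raised it in OI, without overlap between the FGF9 groups and their controls (log2 difference 1.44 ± 0.10, adjusted p = 1.1e-09). Slc6a6, the taurine transporter, was at 85, 86.4 and 83.7 FPKM in CM, 54.8, 56 and 54.1 in CM_F9, 43.7, 43.5 and 41.5 in OI and 70.6, 68 and 61 in OI_F9 and showed the same reversal (log2 difference 1.28 ± 0.09, adjusted p = 9.2e-10). Both genes were chosen after their values were seen.

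Cxcl5, a neutrophil-attracting chemokine, was at 7.97, 6.05 and 7.71 FPKM in CM, 3.27, 2.88 and 3.34 in CM_F9, 4.06, 4.34 and 3.79 in OI and 5.46, 5.96 and 6.59 in OI_F9 and also fell in CM and rose in OI (log2 difference 1.77 ± 0.19, adjusted p = 1.4e-06). Esm1, an endothelial proteoglycan, and Hhipl1, a Hedgehog-interacting protein relative, had this sign too, with effects of -0.79 in CM and 0.47 in OI for Esm1 and -0.99 in CM and 0.39 in OI for Hhipl1. The opposite order, up in CM and down in OI, held for Egr1, Smpd3, Adamts1 and Mmp13 above, and for 5 more. Among these, the WNT antagonist Dkk2 changed by 0.41 in CM and -0.67 in OI, the growth factor Pdgfd by 0.36 in CM and -0.71 in OI, the guidance ligand Sema3e by 0.52 in CM and -1.18 in OI, Clca3a1 by 1.59 in CM and -0.39 in OI and Znhit6 by 0.39 in CM and -0.95 in OI. Pdgfd missed the fold threshold of the difference without OI_F9 replicate 1 (-1.15 to -0.996).

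Ligands and antagonists of developmental pathways were called in both directions within a pathway. Of 38 WNT genes, Sfrp2 and Rspo3 were higher and Dkk2 and Rspo2 lower. Rspo2 and Rspo3, the R-spondins that enhance WNT signaling, fell with FGF9 in both media. The effects were -2.37 in CM and -3.44 in OI for Rspo2 and -3.08 in CM and -1.99 in OI for Rspo3, so the differences had opposite signs (log2 difference -1.07 ± 0.12, adjusted p = 1.2e-06 for Rspo2; log2 difference 1.09 ± 0.17, adjusted p = 1.2e-04 for Rspo3). The Rspo2 value missed the fold threshold without OI_F9 replicate 3 (-1.14 to -0.98). Of 45 genes of the BMP and TGF-beta family, Nog, Gdf10 and Hey1 were higher and Id4, Chrdl1 and Gdf6 lower. Chrdl1, a BMP antagonist, was at 10.8 to 11.7 FPKM in CM, 0.79 to 0.87 in CM_F9, 16.4 to 18.4 in OI and 0.38 to 0.73 in OI_F9 (log2 difference -1.28 ± 0.18, adjusted p = 4.7e-05). Gdf6, a BMP ligand of joints, was induced by 4.70 in CM and 3.44 in OI (log2 difference -1.26 ± 0.16, adjusted p = 1.0e-05). Of 17 Notch genes, the target factors Hey1 and Hey2 were called higher at under 2 FPKM. Hey2 (3.23 to 4.80) was lost without OI_F9 replicate 2 and Hey1 (1.12 to 1.79) without CM replicate 1 or 2, CM_F9 replicate 1 or 3, OI replicate 1 or 2 or OI_F9 replicate 3.

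A list of genes tied to the haematopoietic niche, markers included, gave 4 lower calls of 22 (18.2%, beside 1.13% of all tested genes) and none higher. The list median was -0.49, and this count held in each of the 12 fits that left out a library. On log2(FPKM + 1), limma did not call 2 of the 4, Lepr and Cxcl14. Kitl, stem cell factor, was at 20.3, 23.3 and 20.1 FPKM in CM, 56.9, 58.2 and 55.4 in CM_F9, 40.1, 40.4 and 36 in OI and 46.9, 50.6 and 44.2 in OI_F9. CM lay below the other groups, and the FGF9 effects were 1.36 in CM and 0.23 in OI (log2 difference -1.12 ± 0.11, adjusted p = 1.5e-07). Lepr, the leptin receptor that marks marrow stroma, was at 0.58 to 0.7 FPKM in CM, 4.21 to 4.27 in CM_F9, 1.87 to 2.74 in OI and 4.51 to 5.92 in OI_F9 (log2 difference -1.53 ± 0.18, adjusted p = 4.2e-06), and Angptl7, a secreted angiopoietin-like protein, was at 12 to 16.8 FPKM in CM, 54.2 to 61.6 in CM_F9, 104 to 120.1 in OI and 132 to 145 in OI_F9 (log2 difference -1.69 ± 0.12, adjusted p = 1.7e-09). Cxcl14, a chemokine, instead had negative effects in both media, -0.52 in CM and -1.67 in OI (log2 difference -1.15 ± 0.15, adjusted p = 1.5e-05).

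Of 22 complement genes, 4 were called lower (Cfd, Masp1, C2 and Clu), which is 18.2%, beside 1.13% of all tested genes. Masp1, a protease of the lectin pathway, was at 9.4, 9.87 and 8.4 FPKM in CM, 49.3, 50.3 and 47.7 in CM_F9, 42.9, 42.7 and 44 in OI and 82.1, 78.8 and 81 in OI_F9, with OI_F9 the highest group (log2 difference -1.50 ± 0.08, adjusted p = 4.8e-11). Of 33 cytokine genes, Cxcl5 and Saa3 were higher and Tslp, Cxcl14 and Il1rl1 lower. Tslp, an epithelial and stromal cytokine, was at 0.81, 0.62 and 1.02 FPKM in CM, 51.3, 50.2 and 63.9 in CM_F9, 1.52, 1.43 and 1.36 in OI and 23.3, 24.1 and 27.1 in OI_F9. FGF9 induced it steeply in both media, by 5.996 in CM and 4.06 in OI (log2 difference -1.94 ± 0.25, adjusted p = 1.1e-05). Il1rl1, the receptor of interleukin-33, rose by 2.24 in CM and 1.21 in OI, and its difference of -1.03 ± 0.10 (adjusted p = 3.1e-07) missed the fold threshold without CM replicate 3, CM_F9 replicate 2 or OI replicate 1 (-1.09 to -0.93). Saa3, serum amyloid A3, was lost without CM_F9 replicate 1 or OI_F9 replicate 2 (1.48 to 2.11).

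Interferon-stimulated and antigen presentation genes had the lowest median of any list, -1.40 over 33 genes, 32 of them negative, but only H2-Eb1 was called. With the replicate number as a block, more members were called lower, as given at the end. Libraries of a group stood far apart in this list, in part along replicate numbers. Ifit1, an antiviral effector, was at 3.35, 6.89 and 6.82 FPKM in CM, 14.4, 47.5 and 3.87 in CM_F9, 4.66, 44.3 and 40.6 in OI and 3.85, 50 and 13.2 in OI_F9. Its difference of -2.36 ± 1.03 did not pass (adjusted p = 0.26), and the groups overlapped. Replicate 2 was high in CM_F9, OI and OI_F9, and replicate 1 was low in OI and OI_F9. OI replicate 3 was high as well. Isg15, a ubiquitin-like interferon product, showed the same libraries high and low (4.17 FPKM in OI replicate 1 against 35.2 and 41.1 in the others). The median was -0.47 without CM_F9 replicate 2, -0.92 without OI replicate 3, -1.03 without OI_F9 replicate 1 and -2.07 without OI_F9 replicate 2, when 14 members were called lower. Without OI replicate 1, 7 were called. The call of H2-Eb1 was lost without each CM replicate, CM_F9 replicate 3, OI replicate 2 or OI_F9 replicate 1 or 3 (-3.72 to -1.79).

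Several large programs gave no call. None of 40 genes of DNA replication and mitosis, 31 collagen-modifying and crosslinking enzymes, 26 ER chaperones and unfolded protein response genes, 19 clock genes, 18 chondrocyte genes or 13 mitochondrial transcripts was called by edgeR, at medians of 0.16, 0.01, 0.05, -0.0079, 0.20 and 0.13. At an unadjusted p under 0.05 they held 3, 11, 1, 3, 8 and 1 genes respectively, and DESeq2 also called none of them. Of 22 YAP/TAZ targets 1 was called (Fjx1, higher), of 41 collagens Col23a1 was higher and Col6a6, below 1 FPKM, was lower, and of 28 genes each of the ATF4 and NRF2 responses Slc7a11, the cystine transporter, was higher. The shares called were 4.55% of the YAP/TAZ targets and 4.88% of the collagens, beside 1.63% of all tested genes. Slc7a11 missed the fold threshold without CM replicate 1, OI replicate 1 or 3 or OI_F9 replicate 1 (0.96 to 1.17). Sod3, the extracellular superoxide dismutase of the NRF2 list, was lower at the threshold (-1.001 ± 0.09) and was lost without CM replicate 1 or 2, CM_F9 replicate 3, OI replicate 2 or 3 or OI_F9 replicate 2 (-1.04 to -0.94).

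**Figure D5:**
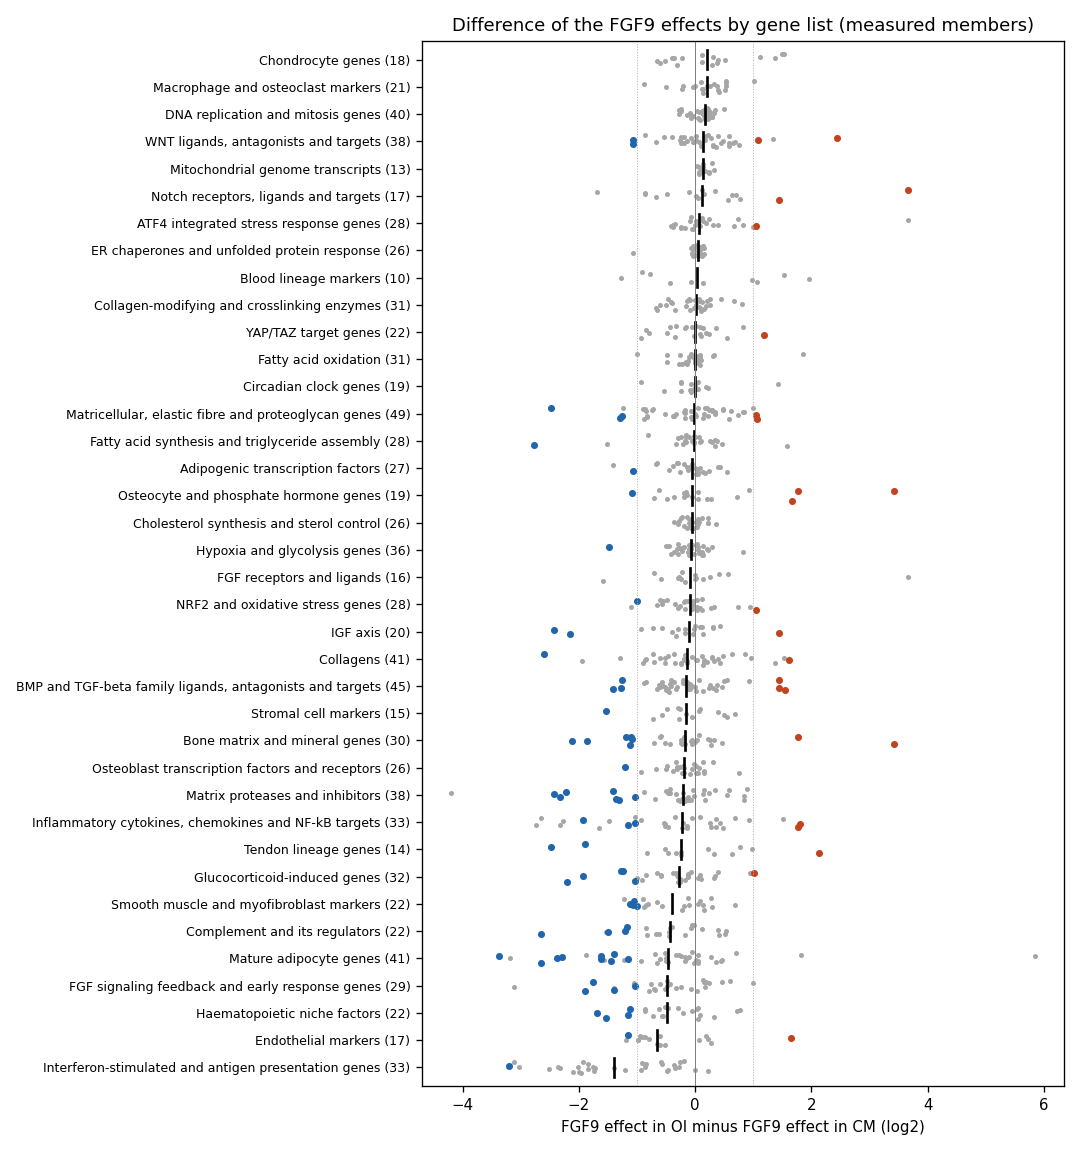
The log2 difference of the FGF9 effects (x axis, OI minus CM) for the measured members of 38 gene lists, with the number measured in brackets, the list median as a black bar, and genes called higher in red and lower in blue. Genes not called are grey. Called members of the adipocyte, protease and niche lists are all blue, as are those of others such as FGF feedback, complement and smooth muscle. The interferon list has the lowest median (-1.40) with 1 called gene.

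The fold threshold separates genes with nearly equal values. Just inside it lay Sod3 (-1.001), Tagln (-1.003) and Ace (-1.005), and just outside Eva1c (-0.998), Pdk4 (-0.997) and H2-T23 (-0.994). Pdk4, a mitochondrial kinase that glucocorticoids and fasting induce, was at 8.28 to 8.47 FPKM in CM, 12.4 to 14.1 in CM_F9, 42.8 to 44.8 in OI and 31 to 36.4 in OI_F9, with FGF9 effects of 0.58 in CM and -0.42 in OI and an adjusted p of 3.4e-07. The scale also decides calls of genes at low FPKM or near the threshold. Besides Retn, Galnt15, Cidec and Acvr1c, the called genes named here (Ace, Serpina3c and Selenbp1 not examined) that limma did not call on log2(FPKM + 1) were Actg2, Adamts15, Adipoq, Adrb3, Aqp7, C2, Car3, Chrdl1, Cnn1, Col23a1, Col6a6, Cxcl14, Dio2, Dlx3, Dmp1, Fjx1, Fkbp5, Fmo2, Gdf10, Gdf6, Gnmt, H2-Eb1, Hey1, Hey2, Igf2, Lepr, Mepe, Panx3, Pdgfd, Phex, Plin1, Podn, Ppargc1a, Ptprz1, Rasl11b, Retnla, Rspo2, Rspo3, Serpinb2, Slc7a11, Sod3, Tagln and Thrsp.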

How the data were processed

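Poly(A) RNA from BMSCs was sequenced by the authors in 18 samples. According to the submitters' processing notes, reads were trimmed with cutadapt 1.9.1, aligned to GRCm39 with HISAT2 2.2.1 and counted per gene with HTSeq 0.6.1. For the strand setting, which the sources used here do not give, no assumption was made, so reads of overlapping or antisense genes cannot be told apart, and values of genes with close relatives (the Serpina3, Retn, Clca3a and H2 families) are uncertain where reads match several copies. The deposited table holds raw read counts for 56691 genes, 34750 of them with at least 1 read, and FPKM values that the authors computed from these counts and the exonic gene lengths. For FPKM values of 5 or more, 100% agreed within 1% with that calculation.

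The 12 libraries used held 16719561 to 20526502 counted reads. Counts were scaled by TMM (factors 0.961 to 1.03), filtered with filterByExpr to 17631 genes and tested with edgeR 4.0.16 in R 4.3.3, with one mean per group over all 18 samples (biological coefficient of variation 7.69%). The contrast was (OI_F9 - OI) - (CM_F9 - CM), and a gene was called where the log2 difference was 1 or more in size and the p adjusted by Benjamini and Hochberg's method was 0.05 or less. The procedure was also run on simulated counts drawn independently for each library, and no result here rests on that run. Replicates differed by more than the sampling noise in each of the 12 pairs within a group.

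Genes were named by 3 rules, namely the 10 largest differences in each direction among called genes at 5 FPKM or more in a group, up to 4 called members of each of 39 gene lists with the smallest adjusted p, and the genes the study names. Another rule, for genes past both thresholds in opposite directions at that level, found none. A further 57 genes were chosen after their values were seen, among them some of those described as changing in opposite directions. The comparison and the lists were chosen with earlier results of these data known. Promoter sequences came from RefSeq (GRCm38.p6), matched by symbol, and no coordinates were converted between builds.

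Alternatives were library size scaling, DESeq2 1.42.0, no filter, a stricter filter (1 CPM in 3 samples and a mean of 50 counts), limma 3.58.1 on log2(FPKM + 0.1, 0.5 or 1), the 12 samples alone, the replicate number as a block, each of the 12 libraries left out, and no fold threshold.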

Additional observations from a re-analysis of the deposited data

Results flagged for a closer look

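The FGF9 effect differed between the 2 media, by the interaction test of edgeR with adjusted p, in 287 genes. Beyond this count, 14 genes that reached 5 FPKM in a group had FGF9 effects of opposite sign with an adjusted p of at most 0.05 in each medium. The log2 difference was positive, with a fall in CM and a rise in OI, for Cxcl5 (1.77), Cdo1 (1.44), Hhipl1 (1.37), Slc6a6 (1.28) and Esm1 (1.26). It was negative, with a rise in CM and a fall in OI, for Clca3a1 (-1.98), Egr1 (-1.89), Smpd3 (-1.86), Sema3e (-1.7), Adamts1 (-1.41), Znhit6 (-1.34), Dkk2 (-1.08), Pdgfd (-1.07) and Mmp13 (-1.03).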

How the results depend on the processing

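Counts of genes called higher and lower, 88 and 199, were 84 and 204 with library size scaling, 94 and 214 with DESeq2, 105 and 285 without a filter, 64 and 157 with the stricter filter and 86 and 186 with 12 samples. On log2 FPKM, limma gave 86 and 207 with a pseudocount of 0.1, 56 and 129 with 0.5, and 39 and 84 with 1. Without a fold threshold the counts were 373 and 594. Leaving out each library gave 73 to 94 higher and 175 to 241 lower. Of the 287 called genes, 277 were called by DESeq2, 219 of the 220 tested under the stricter filter, 146 by limma with a pseudocount of 0.5 and 98 with 1, and 235 to 252 with a library left out. DESeq2 gave no adjusted p for 342 genes, 1 of them called by edgeR. The share of calls that were higher was 30.7%, and 23.2% without OI_F9 replicate 2.

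Of 112 called genes that are named, 51 were called under every one of the 21 alternatives with a fold threshold in which they were tested, and 61 were not called under at least 1. A pseudocount shrinks the fold of genes with low FPKM. Direction reversed for Cidec (0.30 with a pseudocount of 1) and Acvr1c (0.00840 with 0.5 and 0.055 with 1). With the replicate number as a block, 96 were higher and 232 lower, 284 of the 287 were kept, Tagln was not called and 10 interferon genes were called lower. The numbers only partly marked shared deviations. Of 18 pairs of equal number, 12 correlated above 0.1 (0.0126 to 0.506, with OI and OI_F9 at 0.377 to 0.506), and 7 of 12 samples correlated best with their own number in every other group. Genes with a few reads in CM, such as Retn, Retnla, Cidec and Mmp10, have imprecise effects at this depth.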
